A study of Mus musculus with 4 samples.

Results

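The genes described here are 7 stress-response genes that act on autophagy and on the growth kinase mTOR: Trp53inp1 and Trp53inp2, the sestrins Sesn1, Sesn2 and Sesn3, and Ddit4 with its relative Ddit4l. They are 7 of 22180 genes measured on 4 Affymetrix gene arrays, and each was found by its symbol in the platform's annotation, where it had 1 probe. They were selected on function and on the measured log2 difference between the 2 groups of arrays, so their own values are given as a description and without a test. The arrays held RNA from B16-OVA cells, a line of mouse melanoma with an ovalbumin transgene. Per the labels, 2 arrays came from cells that were mock transfected and 2 from cells transfected with AT90ES, a name that the treatment text links to a double-stranded DNA 90mer delivered with Lipofectamine 2000, a cationic lipid, for 6 hours. That text does not differ between the groups. Whether the mock cells were given lipid, other DNA or neither is therefore unknown here, and an effect of DNA cannot be told apart from one of transfection. All 4 arrays come from 1 cell line, and nothing in the labels says that the arrays of a group were separate cultures.

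Cells slow growth and recycle their own material under stress partly through these genes. The protein of Trp53inp1 is a p53-induced nuclear protein that helps stress kinases to phosphorylate p53 and that also binds LC3 and GABARAP proteins on autophagosomes, and the protein of Trp53inp2 shuttles from the nucleus to autophagosomes. Sestrins bind the GATOR2 complex and so keep amino acids from switching on mTOR complex 1 at the lysosome, with sestrin 2 acting as a leucine sensor, while the proteins of Ddit4 (REDD1) and Ddit4l (REDD2) restrain the same complex through the TSC1-TSC2 brake. Sesn1 and Sesn2 are known p53 targets, Sesn2 and Ddit4 are also targets of the stress factor ATF4, Sesn3 is a FoxO target, and Ddit4 is known as well for its response to hypoxia and glucocorticoids.

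Within each family 1 gene stood far higher on the AT90ES arrays and its relatives did not. Trp53inp1, Sesn2 and Ddit4 had log2 levels higher by 3.12, 2.08 and 1.79 on the AT90ES arrays, or 8.68-fold, 4.24-fold and 3.46-fold. The differences of the other 4 genes lay between -0.04 (Sesn1) and 0.13 (Sesn3). Both AT90ES arrays lay above both mock arrays for 4 of the 7 genes, against 17.7% of all genes, and below them for 0, against 22.1%. For 3 of the 7 they did so with a difference of at least 1, against 0.491% of all genes. The rule that chose the genes used this contrast, so nothing is read from these counts. In bulk RNA a change in every cell and a larger change in some of the cells cannot be told apart.

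Promoter sequences are shown for the pair Sesn2 and Ddit4, which stood higher together, and for the relatives Sesn1 (its inner start site) and Ddit4l, which did not. They are the 250 bases before the start site in RefSeq's GRCm38.p6 annotation, written 5' to 3' along the gene. Capitals mark matches to the motifs searched.
Sesn2, chr4:132510457-132510706, minus strand: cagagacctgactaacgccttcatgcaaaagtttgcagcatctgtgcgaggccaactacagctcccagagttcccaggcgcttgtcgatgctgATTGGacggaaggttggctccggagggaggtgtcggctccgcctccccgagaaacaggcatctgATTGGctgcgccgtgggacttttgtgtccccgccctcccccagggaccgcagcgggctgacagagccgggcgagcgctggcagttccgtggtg
Ddit4, chr10:59951771-59952020, minus strand: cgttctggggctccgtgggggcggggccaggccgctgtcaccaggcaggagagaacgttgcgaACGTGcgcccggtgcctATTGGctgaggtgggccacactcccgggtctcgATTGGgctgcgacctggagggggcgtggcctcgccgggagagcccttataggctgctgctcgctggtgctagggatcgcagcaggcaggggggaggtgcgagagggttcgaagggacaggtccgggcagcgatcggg
Sesn1, chr10:41887189-41887438, plus strand: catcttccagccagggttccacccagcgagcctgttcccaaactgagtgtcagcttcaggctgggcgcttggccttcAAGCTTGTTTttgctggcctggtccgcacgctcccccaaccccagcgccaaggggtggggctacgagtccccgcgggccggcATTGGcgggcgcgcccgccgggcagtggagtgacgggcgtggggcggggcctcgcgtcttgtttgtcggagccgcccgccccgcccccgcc
Ddit4l, chr3:137623422-137623671, plus strand: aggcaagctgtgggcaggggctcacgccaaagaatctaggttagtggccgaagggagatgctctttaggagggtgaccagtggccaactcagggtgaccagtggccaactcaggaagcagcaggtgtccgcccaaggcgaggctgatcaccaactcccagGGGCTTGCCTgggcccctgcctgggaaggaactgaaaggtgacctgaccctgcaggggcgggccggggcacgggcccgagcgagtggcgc

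Promoters of 6 of the 7 genes were matched in the RefSeq table, Sesn1 with 2 start sites. Trp53inp1 was not among them. The 250 bases were searched on both strands for the p53 half-site, the ATF4 element TGATGNAA, the CREB element TGACGTCA, the FoxO element TGTTTAC, the hypoxia element core ACGTG, the interferon element core GAAANNGAA and the CCAAT box. No marked match overlaps another. In the Sesn2 window the marked bases are a pair of CCAAT boxes read on the other strand, ATTGG, at 157 to 153 and 93 to 89 bases before the start. The Ddit4 window also held 2 CCAAT boxes, and in addition 1 match to ACGTG 187 to 183 bases before the start. Other forms of the hypoxia core, such as GCGTG, were not searched. CCAAT boxes were not particular to this pair: Sesn3 held 4, Trp53inp2 held 2, each Sesn1 window held 1 and Ddit4l held 0. A CCAAT box was present in 33.8% of 32851 promoters and at least 2 in 10.1%, and ACGTG in 16.6%. A p53 half-site was matched in the inner of the 2 Sesn1 windows (AAGCTTGTTT) and not in the other. It was also matched in the Ddit4l window (GGGCTTGCCT) and in 7.13% of all promoters. Trp53inp2 held the CREB element 41 to 34 bases before its start, as did 1.55% of promoters somewhere in the window. None of the 7 windows matched TGATGNAA (3.45% of promoters), TGTTTAC (3.17%) or GAAANNGAA (7.13%). A match is a description of letters and not a bound site, and a window without a match says nothing about sites elsewhere.

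Trp53inp1 had log2 levels of 7.57 and 7.48 in the mock samples, against 10.63 and 10.65 with AT90ES. The groups were far apart and the arrays within each nearly level. The group means were 7.52 ± 0.07 and 10.64 ± 0.01 (SD, n = 2 arrays per group). The smallest of the 4 differences between an AT90ES and a mock array was 3.06 and the largest was 3.17, while the widest gap within a group was 0.09. Its difference ranked 14 among the 22180 genes. Trp53inp2, the relative that works on autophagosomes, had levels of 6.17 and 6.21 in mock cells and of 6.13 and 6.46 in AT90ES cells. Its groups overlapped: AT90ES replicate 1 was the lowest of the 4 arrays and AT90ES replicate 2 the highest. The mean difference of Trp53inp2 was 0.10, below the gap of 0.33 between its AT90ES arrays. The difference of Trp53inp1 exceeded that of Trp53inp2 by 3.02 on the log2 scale.

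**Figure D1:**
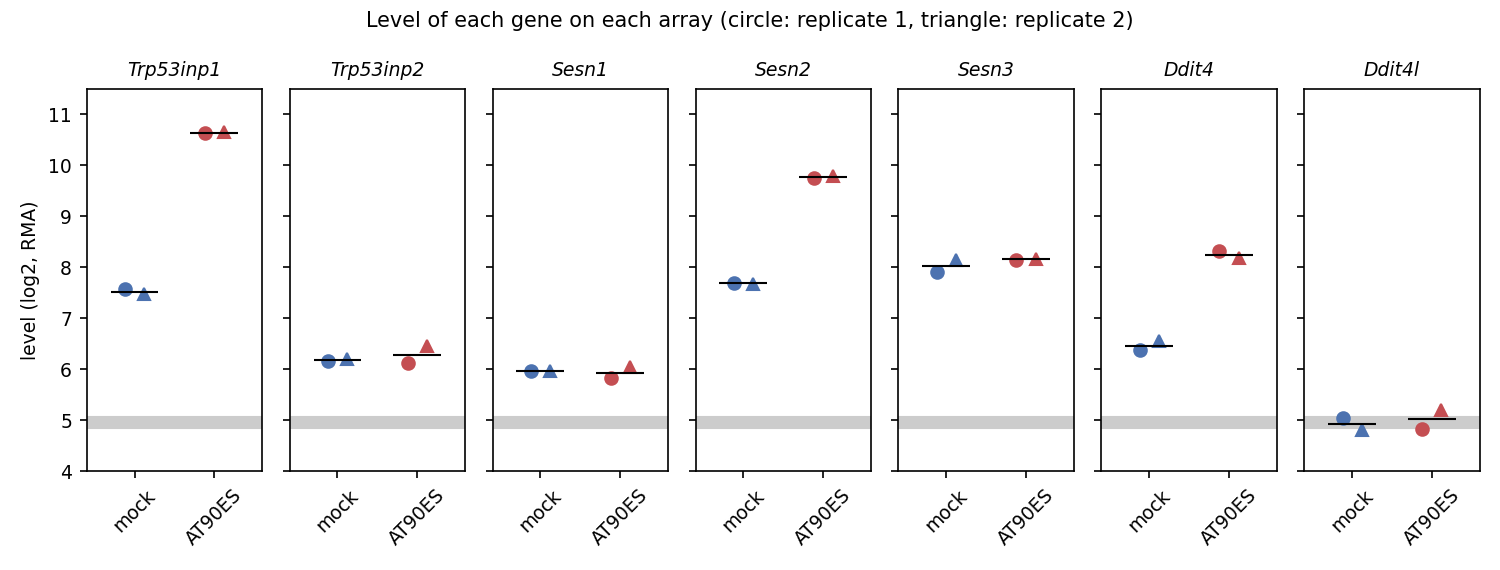
Log2 level (RMA) of each of the 7 genes on each array, with circles for replicate 1, triangles for replicate 2, bars for group means and a grey band for the 95th percentile of olfactory receptor genes over the 4 arrays (4.85 to 5.07). Trp53inp1, Sesn2 and Ddit4 stand apart between the groups; levels of different genes come from different probes and are not to be set against each other.

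Sesn2, the leucine-sensing sestrin, had log2 levels of 7.70 and 7.68 in mock cells and of 9.76 and 9.79 in AT90ES cells. No array of either group came near the other group. The means were 7.69 ± 0.02 and 9.77 ± 0.02 (SD, n = 2). The 4 differences between arrays ran from 2.05 to 2.11, and the gaps within groups were 0.03 and 0.03. This was the tightest separation among the 7 genes relative to the spread of the replicates. Sesn1, the sestrin first described as a p53 target, was at 5.98 and 5.98 in mock cells and at 5.83 and 6.04 in AT90ES cells. The mock arrays lay between the AT90ES arrays, and the mean difference was -0.04. Sesn3, the FoxO-linked sestrin, was at 7.91 and 8.15 in mock cells and at 8.15 and 8.17 in AT90ES cells. The AT90ES arrays lay above the mock arrays, but the smallest difference was 0.0055, mock replicate 2 stood almost level with them and the gap of 0.24 between the mock arrays was wider than the mean difference of 0.13. The difference of Sesn2 exceeded those of Sesn1 and Sesn3 by 2.12 and 1.95.

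Ddit4, which encodes the mTOR inhibitor REDD1, had log2 levels of 6.37 and 6.55 in mock cells and of 8.32 and 8.18 in AT90ES cells. The groups did not overlap, though the replicates were further apart than for Trp53inp1 or Sesn2. The means were 6.46 ± 0.13 and 8.25 ± 0.10 (SD, n = 2), and the 4 differences between arrays ran from 1.63 to 1.95. Ddit4l was at 5.05 and 4.80 in mock cells and at 4.84 and 5.21 in AT90ES cells. Its arrays interleaved, and 1 of the 4 lay above the 95th percentile of olfactory receptor genes on the same array, a family taken here as not expressed. A change of Ddit4l could go unseen at that level, whereas the other 6 genes lay above the percentile on all 4 arrays.

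**Figure D2:**
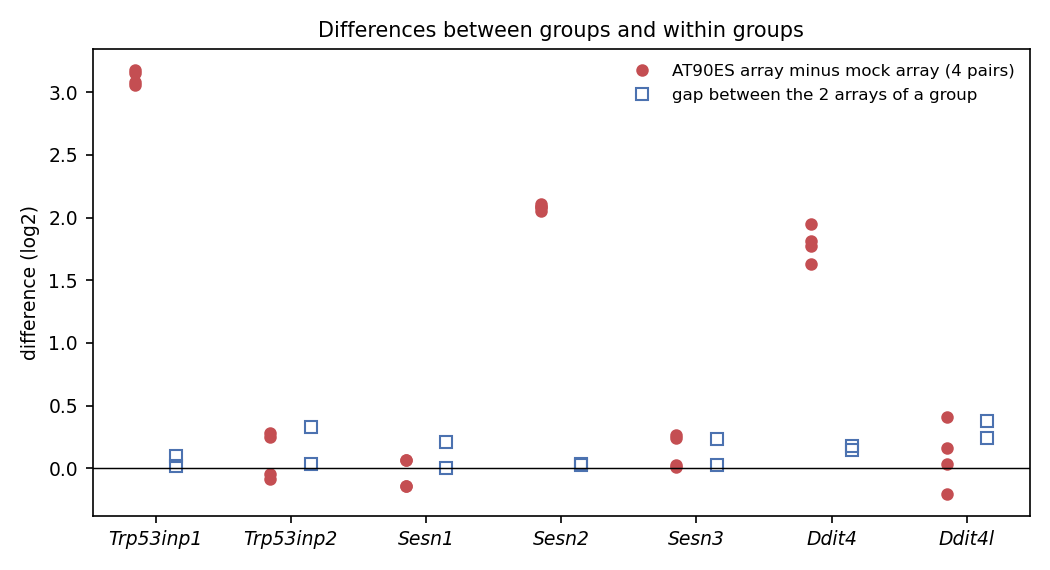
For each gene, red points give the 4 differences between an AT90ES and a mock array (log2) and blue squares the gap between the 2 arrays of each group. For Trp53inp1, Sesn2 and Ddit4 the smallest difference (3.06, 2.05 and 1.63) lies above the gaps within groups, and for the other 4 genes it does not.

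**Figure D3:**
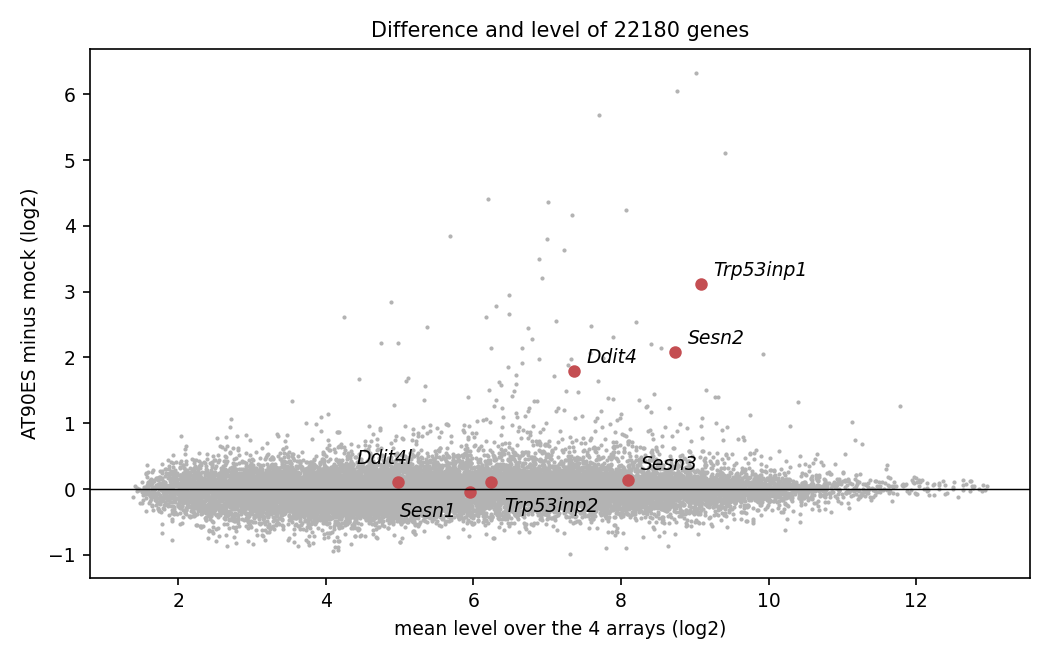
Difference AT90ES minus mock (log2) against the mean level over the 4 arrays (log2) for 22180 genes in grey, with the 7 genes in red. Trp53inp1, Sesn2 and Ddit4 lie above the bulk of genes of similar level at 3.12, 2.08 and 1.79, and the other 4 lie within it.

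The genes whose 4 mean-centred values lay nearest to each of the 3 were found by Euclidean distance over the 4 arrays, with the 7 genes left out. Nearest to Trp53inp1 were Oasl1, an interferon-induced relative of the oligoadenylate synthetases (distance 0.18), the gene model 1700007K13Rik (0.38) and Ddx58, which encodes the RNA sensor RIG-I (0.39). Nearest to Sesn2 were Ifitm3, which blocks virus entry (0.09), Stat2, a transcription factor of the interferon pathway (0.13), and Samd9l, an interferon-induced antiviral gene (0.14). Nearest to Ddit4 were Nupr1, a stress-induced ATF4 target (0.13), Hdc, which encodes the enzyme that makes histamine (0.14), and Nfkbie, an inhibitor of NF-kappaB (0.20). Nupr1 had log2 levels of 6.07 and 6.39 in mock cells and of 8.01 and 7.88 in AT90ES cells, a pattern much like that of Ddit4. Hdc on both mock arrays and Oasl1 on 1 of them lay below the olfactory receptor percentile, so the size of their differences is uncertain. Such likeness over 4 arrays in 2 groups mostly reflects a difference of similar size.

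The lists of pathway genes that surround these 7 were tested gene by gene in the limma fit across all 22180 genes, which called 92 genes (0.415%) higher and 0 (0%) lower at a Benjamini-Hochberg adjusted p under 0.05, with 999 higher and 1017 lower at an unadjusted p under 0.05. The list of interferon-stimulated genes, kept for scale, is not among the 14 lists that follow. Of 204 measured genes on 14 lists, the 7 genes left out, 13 (6.37%) rose and 0 fell. Their median difference was 0.15, against -0.02 over all genes. The lists were drawn up with earlier results of these data known, so they are not independent evidence. Without mock replicate 1 the number of genes that rose was 3, without mock replicate 2 it was 4, and it was 2 without AT90ES replicate 1 and 2 without AT90ES replicate 2. Btg2 and Plk2 passed in all 4 of these fits. With an intensity trend in the spread 53 rose and 1 fell.

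Of the 13 genes that rose on these 14 lists, targets of p53 made up most. Among 17 measured targets in growth arrest and feedback, 7 rose, 0 fell and 10 did not pass, with a median difference of 0.95. Without adjustment (p under 0.05) 15 of the 17 were higher and with an intensity trend 15. Btg2, an antiproliferative gene, had levels of 5.87 and 5.81 in mock cells and of 8.34 and 8.47 in AT90ES cells, a rise of 2.56 ± 0.12 on the log2 scale (SE, limma adjusted p = 0.00191). Plk2, a stress-responsive kinase, rose from 6.76 and 7.10 to 9.59 and 9.37. The feedback gene Mdm2, whose protein degrades p53, rose by 1.39 (limma adjusted p = 0.0243) and Cdkn1a, the inhibitor of cyclin-dependent kinases, by 1.26 (limma adjusted p = 0.0347), and neither passed in any fit that left out an array. In those 4 fits the list had 2 members higher each time. Of 11 measured p53 targets in cell death, 1 rose, 0 fell and 10 did not pass, with a median of 0.64. Both AT90ES arrays lay above both mock arrays for 9 of the 11 and below them for 2. The lowest difference was -0.37, for Pmaip1. Of the 11, 8 lay above the olfactory receptor percentile on all 4 arrays. Without adjustment (p under 0.05) 8 were higher and with an intensity trend 4. The risen gene was Tnfrsf10b, a death receptor for TRAIL, at 6.23 and 6.86 in mock cells and 8.71 and 8.52 in AT90ES cells. It passed in the 2 fits that left out a mock array and not without AT90ES replicate 1 or without AT90ES replicate 2, where the highest limma adjusted p was 0.231.

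Of 4 measured p53 targets in DNA repair and nucleotide supply, 0 passed in limma, against 2 higher without adjustment (p under 0.05) and 1 higher with an intensity trend. Polk, a DNA polymerase that copies past damage, had a difference of 1.08 (limma adjusted p = 0.061, and 6.44e-05 to 0.39 over the alternatives). Pcna, the replication clamp, stood at -0.06. Among 8 measured genes of the p53 family and of the kinases and cofactors through which the Trp53inp1 protein acts, 0 passed, with 2 higher without adjustment (p under 0.05) and 1 with an intensity trend. Hipk2, a kinase that phosphorylates p53 together with the Trp53inp1 protein, stood at -0.07 and Ep300, a p53 acetyltransferase, at 0.31. Trp53 itself was not analysed here.

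Genes of ATF4 and the integrated stress response, a known input to Sesn2 and Ddit4, were measured for 21 members, of which 4 rose, 0 fell and 17 did not pass. The median was 0.53. Without adjustment (p under 0.05) 14 were higher and with an intensity trend 13. Slc7a11, the cystine importer, was at 5.58 and 5.84 in mock cells and at 7.69 and 7.21 in AT90ES cells, a rise of 1.74 ± 0.20 (SE, limma adjusted p = 0.0415). Nupr1 rose by 1.72, Atf3, a stress-induced transcription factor, by 1.48 and Chac1, which degrades glutathione, by 1.20. Atf4 mRNA stood at 0.20, and its protein is known to be controlled largely at translation. Ddit3, which encodes CHOP, had a difference of 0.71 (limma adjusted p = 0.16, and 0.00517 to 0.539 over the alternatives). Trib3, another ATF4 target, had a difference of 0.91 (limma adjusted p = 0.266, and 0.00664 to 0.698). Without mock replicate 2 the list had 1 member higher, Nupr1, and with mock replicate 1, AT90ES replicate 1 or AT90ES replicate 2 left out it had 0.

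Of the machinery on which the sestrins and REDD proteins act no gene passed, but a larger share than over all genes leaned higher. Over 5 lists with 99 measured genes of the mTOR complexes, amino acid sensing, TSC and AMPK inputs, mTOR outputs and autophagy, limma called 0 higher and 0 lower, against 22 higher and 1 lower without adjustment (p under 0.05). An intensity trend gave 12 higher and 0 lower. Over all 22180 genes the unadjusted counts were 999 higher and 1017 lower, and those with an intensity trend 431 and 162. The comparison was not matched for level: 12998 of the 22180 genes lay above the olfactory receptor percentile on at least 2 arrays. On the 5 lists 12 of 12, 26 of 27, 19 of 21, 11 of 13 and 25 of 26 genes lay above it on all 4. How far brightness accounts for the lean was not tested. Centring the arrays on the reference genes moved every difference by -0.05 and centring on their median by 0.03, so the sign of smaller values depends on the scaling. No difference among the 99 was larger than 0.96, and the smallest among the pathway genes that rose was 1.02 (Ccng1). The fit could thus hardly call differences of this size, and 0 calls does not show that these genes were unchanged. Among 12 genes of the mTOR complexes the median was 0.02. Mtor, the kinase, stood at 0.15, Rptor, the scaffold of complex 1, at -0.02 and Rictor, that of complex 2, at 0.04. Deptor, an inhibitor within the complexes, was at 9.46 and 9.58 in mock cells and at 9.87 and 9.98 in AT90ES cells, a difference of 0.40 (limma adjusted p = 0.438, 0.00634 with an intensity trend, and up to 0.766 over the alternatives).

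Among 27 measured genes of amino acid sensing at the lysosome the median difference was 0.09. The sestrin target GATOR2 had Mios at -0.02, Wdr24 at 0.05 and Seh1l at 0.25. The GATOR1 subunits Depdc5 and Nprl2 stood at 0.09 and -0.04, and the arginine sensor Castor1 at 0.04. The largest difference, named after its value was seen, was 0.96 for Rragb, a Rag GTPase, whose levels of 4.10 and 4.10 in mock cells and 4.96 and 5.16 in AT90ES cells began below the 95th percentile of olfactory receptor genes (limma adjusted p = 0.074, and 0.0076 to 0.39 over the alternatives). Among 21 measured TSC, Rheb, AMPK and AKT genes the median was 0.08. The differences ran from -0.29 (Prkab1) to 0.72 (Prkaa2), both genes listed because of their size. Prkaa2 did not pass in limma (adjusted p = 0.194) but did with an intensity trend (limma adjusted p = 0.00168). Tsc1 and Tsc2, the brake that REDD1 engages, stood at 0.21 and 0.08, Rheb, the GTPase they restrain, at 0.19, the AMPK subunit Prkaa1 at 0.21 and Akt1 at -0.14.

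Among 13 measured mTOR outputs the median was 0.15. Here the lowest difference was -0.52 (Grb10) and the highest 0.71 (Lpin1), both again listed because of their size. Lpin1 did not pass in limma (adjusted p = 0.135) but did with an intensity trend (limma adjusted p = 0.000707). Eif4ebp1, a translation inhibitor that mTOR inactivates and an ATF4 target, was at 9.02 and 8.98 in mock cells and at 9.48 and 9.49 in AT90ES cells, a difference of 0.48 that did not pass (limma adjusted p = 0.326, 0.00195 with an intensity trend, and up to 0.75). Ulk1, the kinase that starts autophagy, had a difference of 0.50 (limma adjusted p = 0.316, 0.0158 with an intensity trend, and up to 0.728). Tfeb, the lysosomal transcription factor, stood at 0.05 and the ribosomal protein gene Rps6 at -0.07. Of 26 measured autophagy genes, which include the LC3 and GABARAP partners of the Trp53inp proteins, the median was 0.14. Map1lc3b stood at -0.03 and Gabarap at 0.11. Gabarapl1 had a difference of 0.60 (limma adjusted p = 0.317, 0.00465 with an intensity trend, and up to 0.756) and the autophagy receptor Sqstm1 one of 0.37 (limma adjusted p = 0.444, 9.5e-05 with an intensity trend, and up to 0.795). For Deptor, Eif4ebp1, Ulk1, Gabarapl1 and Sqstm1 both AT90ES arrays lay above both mock arrays, as for 17.7% of all genes. That was not particular to them. It held for 4 of 12 mTOR complex genes and 13 of 27 amino acid sensing genes. It also held for 11 of 21 TSC, Rheb, AMPK and AKT genes, 7 of 13 mTOR outputs and 14 of 26 autophagy genes. On these lists both lay below for 2, 1, 3, 2 and 2 genes, against 22.1% of all genes. The shares over all genes include many dim genes and were not matched for level.

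Other known inputs to these genes were also described by fixed lists. Of 12 measured Nrf2 and peroxiredoxin genes, 1 rose, 0 fell and 11 did not pass, with a median of 0.10. The risen gene was Hmox1, heme oxygenase 1, at 8.24 and 8.56 in mock cells and 10.01 and 9.80 in AT90ES cells, and it lost the call whichever array was left out (limma adjusted p up to 0.228). Nfe2l2, which encodes Nrf2, stood at 0.07. Of 11 FoxO factors and targets 0 passed, with 5 higher without adjustment (p under 0.05) and 3 with an intensity trend. Foxo3 had a difference of 0.58 (limma adjusted p = 0.236, and 0.0248 to 0.681 over the alternatives), and the FoxO-linked Cited2 one of 0.26.

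Of 13 measured hypoxia genes 0 passed, with 1 higher and 1 lower at an unadjusted p under 0.05. An intensity trend gave 1 higher and 1 lower, and the median was -0.08. Hif1a, the hypoxia factor, stood at -0.01. Ndrg1 was at 9.34 and 9.42 in mock cells and at 8.63 and 8.76 in AT90ES cells, a difference of -0.69 (limma adjusted p = 0.176, 0.000256 with an intensity trend, and up to 0.681). Vegfa, the blood vessel growth factor, was the highest of the list and is named after its value was seen. It was at 8.16 and 8.12 in mock cells and at 8.63 and 8.75 in AT90ES cells, a difference of 0.55 (limma adjusted p = 0.295, 0.00445 with an intensity trend, and up to 0.681). Of 8 glucocorticoid response genes 0 passed, with 1 higher without adjustment (p under 0.05) and 1 given an intensity trend. The median was 0.15. Dusp1 stood at 0.15 and Per1 at -0.09. The highest of the list, named after its value was seen, was Klf9, a transcription factor, at 6.21 and 6.46 in mock cells and 7.18 and 7.23 in AT90ES cells. Its difference of 0.87 did not pass (limma adjusted p = 0.127, and 0.00293 to 0.531 over the alternatives) but passed in 3 of them: with an intensity trend, with dim genes left out and after centring on the array median.

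**Figure D4:**
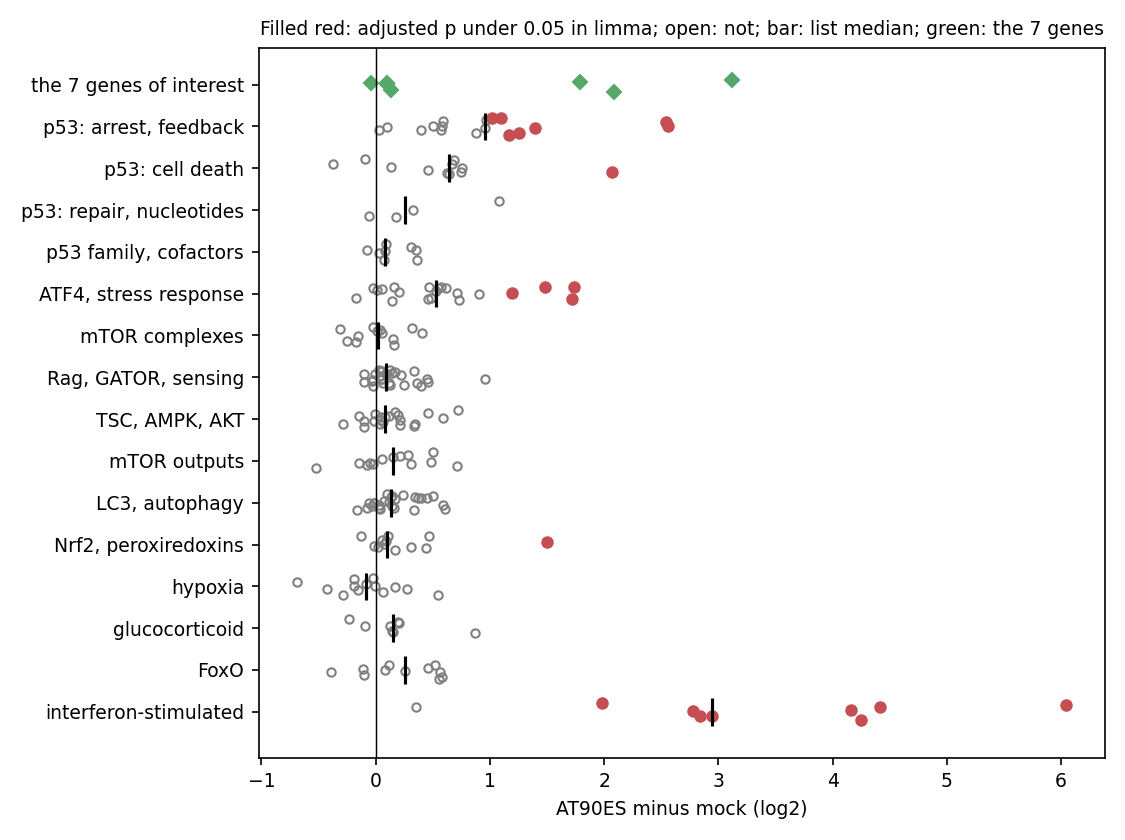
Difference AT90ES minus mock (log2) of each measured gene by list, filled red where the limma adjusted p is under 0.05 and open where it is not, with a bar at the list median and green diamonds for the 7 genes. Genes past the threshold lie on the p53, ATF4, Nrf2 and interferon lists, with 0 on the 5 lists of mTOR and autophagy genes.

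Interferon-stimulated genes gave the scale of the largest differences on these arrays: 8 of 9 measured rose, 0 fell and 1 did not pass, with a median of 2.95. Trp53inp1, at 3.12, lay among them, while Ifit1, which binds foreign RNA, rose by 6.05, Mx2, an antiviral GTPase, by 4.41 from mock levels of 3.91 and 4.08 that lay below the olfactory receptor percentile, so that its exact size is uncertain, and Rsad2, the antiviral enzyme viperin, by 4.25.

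The arrays were much alike as a whole, with medians over all probes between 4.83 and 4.91 and Pearson's r across genes of 0.992 and 0.993 within the groups and 0.987 to 0.989 across them, where genes are not independent replicates. Of 11 measured melanocyte markers 10 lay above the olfactory receptor percentile on all 4 arrays, with Pmel at 12.31 and 12.25 in mock cells. None of the 11 passed, and 1 was lower without adjustment (p under 0.05). With an intensity trend 1 was lower, Mitf, the master regulator of melanocytes, at -0.34 (limma adjusted p = 0.469 as reported, 0.00483 with the trend and up to 0.817 over the alternatives). The same percentile was passed on all arrays by 4 of 10 markers of myeloid cells, 1 of 9 of lymphocytes and 4 of 10 of fibroblasts and endothelium, none of which passed in limma in either direction (1 myeloid and 1 lymphocyte marker lower without adjustment, p under 0.05, and 0 with an intensity trend). The summed level of the myeloid markers was 8.66 and 8.66 (log2) in mock cells and 8.43 and 8.53 in AT90ES cells. Its part in the results was not tested.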

How the data were processed

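Each of 4 samples (2 mock, 2 AT90ES) gave 300 ng of total RNA for an Affymetrix gene array. The authors deposited log2 levels produced by RMA, according to the submitters' processing notes; the software, its version and its settings are not given in the sources used here. RMA equalises the arrays, so every difference is relative to the other genes. Of 41345 probes, 23521 had 1 gene symbol, 1814 several and 16010 none, and only the first kind named genes. The brightest probe stood for each of the 1082 genes with more than 1. The groups were compared in limma 3.58.1 (R 4.3.3, lmFit and eBayes, no covariate, no filter), two-sided, with Benjamini-Hochberg adjustment over 22180 genes. All adjusted p-values are limma's. With 2 arrays a group, their number limits the precision, and p-values measure the spread between arrays, which may be technical. In limma that spread, and with it every SE, is drawn toward that of all genes, with 3.7 prior against 2 residual degrees of freedom. The steps were run on simulated arrays with independent noise and known changes, which checks the code and not the independence of these arrays.

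Named genes were the 7 described, a fixed set of pathway genes, up to 3 past the threshold per list by size of difference (with groups not overlapping) or else the 2 of highest level, and the 3 nearest in pattern to each of the 7 with a difference of at least 1. The genes and lists were chosen with earlier results of these data known. The alternatives were other scalings, the mean of a gene's probes, an intensity trend, dim genes left out (not above the olfactory receptor percentile on at least 2 arrays), the replicate number as a block, every probe tested separately and each array left out.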

Additional observations from a re-analysis of the deposited data

How the results depend on the processing

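Of the 7 genes, Trp53inp1, Sesn2 and Ddit4 moved little, while Trp53inp2, Sesn1 and Ddit4l changed sign with some array left out. Trp53inp1 stood at 3.07 when arrays were centred on reference genes, and Sesn2 at 2.03 there and at 2.11 when they were centred on their median, shifts above the small spread of their replicates. With each array left out in turn Trp53inp1 ranged from 3.07 to 3.17, Sesn2 from 2.07 to 2.10 and Ddit4 from 1.70 to 1.88, while Trp53inp2 ranged from -0.06 to 0.27, Sesn1 from -0.14 to 0.07, Sesn3 from 0.02 to 0.25 and Ddit4l from -0.09 to 0.29. Over all genes the limma calls of 92 higher and 0 lower became 172 and 4 after centring on the array median, 431 and 162 with an intensity trend, 165 and 6 with dim genes left out, and 30 higher among all probes tested separately. They were 32 to 47 higher with an array left out, a fit that lends the single array the spread of the remaining pair. Of the pathway genes other than the 7, 53 rose and 1 (Ndrg1) fell with an intensity trend, 23 rose with dim genes left out, and 2 to 4 rose with an array left out. The causes were not tested. Nothing in the labels says whether same-numbered arrays of the groups were paired. Over genes, their deviations from the group means correlated at -0.22, and whether any arrays shared a batch is unknown. With the replicate block 85 genes were higher, and with the crossed pairing, added after the data were seen, 59, of which 7 were pathway genes. For named genes outside the 7, 622 of 671 comparisons with an alternative kept their side of the threshold, 34 lost the call, 15 gained it and 0 changed sign where a call was made before or after. In 25 comparisons of 12 genes past no threshold, with differences of at most 0.0944 in size, the sign changed. The number and brightness of the arrays limit what can be seen of dim genes such as Ddit4l.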

Other observations

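The nearest measured protein-coding genes on either side of each of the 7 genes in RefSeq's order were added after the data were seen. None of these 14 neighbours passed in limma, 0 had an unadjusted p under 0.05 and 0 passed with an intensity trend, and their differences lay between -0.30 and 0.20. Beside Trp53inp1, Ndufaf6, an assembly factor of respiratory complex I, stood at -0.12 and Ints8, an Integrator subunit, at 0.14. Beside Sesn2, Med18, a Mediator subunit, was at 6.42 and 6.29 in mock cells and at 6.12 and 6.00 in AT90ES cells, a difference of -0.30 against the 2.08 of Sesn2 (limma adjusted p = 0.561), and Atpif1, the inhibitor of the mitochondrial ATP synthase, stood at -0.03. Beside Ddit4, the chaperone gene Dnajb12 stood at 0.20 and Anapc16, a subunit of the anaphase-promoting complex, was at 8.41 and 8.58 in mock cells and at 8.57 and 8.42 in AT90ES cells.

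Probes annotated to more than 1 gene were left out of the lists and tested only with every probe taken separately. Of 9 such probes that carry a list gene with no probe of its own, 0 passed in limma, and the largest difference was 0.65 for the probe of Gadd45a, a p53 target in DNA repair, and E230016M11Rik (adjusted p = 0.494).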
